A study of Rattus norvegicus with 16 samples.

Results

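Exercise-linked growth factor signalling was followed in rat hippocampus through 6 genes. They were 3 ligands, Bdnf (ENSRNOG00000047466), Igf1 (ENSRNOG00000004517) and Vegfa (ENSRNOG00000019598), 2 receptors, Ntrk2 (ENSRNOG00000018839) and Igf1r (ENSRNOG00000014187), and the transcriptional coactivator Ppargc1a (ENSRNOG00000004473). The genes were listed by name, with earlier results of these data known, and the list uses no measured value to admit a gene. All 6 of the 6 listed IDs were among the 32754 genes of the count table, and 6 of 6 passed the filter on low counts, as did 15035 genes in all. The table lists IDs only, so the symbols are those under which the members were listed.

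Hippocampal tissue came from wild-type male Fischer-344 rats, an inbred strain much used in aging research. The groups were old exercise-trained, old sedentary, young exercise-trained and young sedentary, with 4 rats each and 16 libraries in all. Old rats were 20 months and young rats 6 months of age. Training or sedentary housing lasted 10 weeks and was followed by behavioral tests, and tissue was collected days after the last of them. Library totals lay between 8630396 and 14576687 counts. On the first principal component of all genes tested, which held 46.9% of the variance, old sedentary replicate 3 had a score of 12.7 while the other old sedentary libraries had 49.7, 55.9 and 52.9. The Bdnf comparisons between groups are given with and without it, while the correlations of Bdnf with other genes include it. The tissue label could not be checked against marker genes, because the table does not name them. In bulk tissue, fewer cells of a type and less RNA per cell cannot be told apart.

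Brain-derived neurotrophic factor, the product of Bdnf, is a neuronal growth factor that is transcribed from several alternative promoters and induced by neuronal activity. It binds the receptor tyrosine kinase TrkB, encoded by Ntrk2, and is known in the hippocampus for its part in synaptic plasticity and memory. Insulin-like growth factor 1, made in liver and locally in brain, acts through the receptor encoded by Igf1r, while vascular endothelial growth factor A drives the growth of blood vessels. Ppargc1a encodes PGC-1alpha, a coactivator of genes for mitochondria, which in mice has been placed upstream of Bdnf in exercise. The counts here are per gene, so they sum over the promoters of Bdnf and over the full-length and truncated receptors of Ntrk2.

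A pair of start-site windows is shown for the cAMP response element, TGACGTCA, a sequence tied to activity-dependent transcription and bound by CREB. The Ppargc1a window holds the full element, and the Bdnf window holds only its shorter core, TGACG. RefSeq (assembly GRCr8) gave windows of 250 bases before to 50 after a start for 5 of the 6 members and 11 windows in all, of which Bdnf had 6 and Vegfa had 2. Capitals mark TGACG on either strand. The Bdnf window is chr3:116637608-116637907, plus strand, and the Ppargc1a window is chr14:63634058-63634357, plus strand.
Bdnf window 4: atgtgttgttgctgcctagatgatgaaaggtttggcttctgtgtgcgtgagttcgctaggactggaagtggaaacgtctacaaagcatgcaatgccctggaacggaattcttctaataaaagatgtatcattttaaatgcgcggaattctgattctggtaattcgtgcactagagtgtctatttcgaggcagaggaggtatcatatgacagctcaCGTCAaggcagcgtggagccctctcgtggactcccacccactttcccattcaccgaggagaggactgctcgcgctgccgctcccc
Ppargc1a window: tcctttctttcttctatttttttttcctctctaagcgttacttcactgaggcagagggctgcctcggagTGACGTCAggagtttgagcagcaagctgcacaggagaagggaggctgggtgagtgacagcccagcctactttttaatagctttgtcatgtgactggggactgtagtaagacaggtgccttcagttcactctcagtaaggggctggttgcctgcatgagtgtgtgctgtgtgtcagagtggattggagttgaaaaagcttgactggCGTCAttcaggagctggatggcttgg
The Bdnf window holds TGACG once, on the minus strand 35 bases before the start, where it overlaps a match to ACGTG, the core bound by hypoxia-inducible factors. The Ppargc1a window holds the full palindrome TGACGTCA 181 bases before the start, which contains TGACG on both strands, and a further TGACG 24 bases after it. Both strands were searched. Of 33469 RefSeq windows, 7097 (21.2%) hold TGACG, 612 (1.83%) hold TGACGTCA and 6444 (19.3%) hold ACGTG. The other 5 Bdnf windows and those of Igf1, Igf1r and Vegfa hold no TGACG. Counting both strands, the hypoxia core had 2 matches in each of Bdnf windows 1 and 2 and 3 in the Igf1r window. The 2 matches in Bdnf window 2, and 2 of the 3 in the Igf1r window, are the palindrome CACGTG read on both strands. The windows of Igf1, Vegfa and Ppargc1a hold none. These are letters in a window, not measured binding.

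Training was followed by a higher Bdnf level at both ages, and Bdnf was the one member that passed the test. In young trained rats Bdnf had 38.1, 34.6, 34.8 and 36.6 CPM (counts of a gene scaled by the TMM-scaled size of its library). Young sedentary rats had 18.3, 21.0, 24.2 and 17.5 CPM. The groups did not overlap, though the share of all genes apart in this way was not counted. The trained rats lay close together, at 36.0 ± 1.63 CPM against 20.2 ± 3.05 CPM in sedentary rats (SD, n = 4 each). Behind these levels were 390 to 470 counts per library in trained and 183 to 308 in sedentary rats. The fold was 1.78 (95% interval 1.19 to 2.65), a log2 fold change of 0.83 with a standard error of 0.27 (edgeR adjusted p = 0.0467). Of all genes tested, 17.1% passed the same threshold in young rats, and Bdnf ranked 2469 by p, so the call lay near the edge. Its fold was more extreme than its p. Bdnf lay at percentile 92.6 of all genes by the size of the log2 fold change, and at 98.8 by the signed value.

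The call in young rats depended on single libraries. It was lost when any 1 of the 4 young trained or 4 young sedentary libraries was left out, with edgeR adjusted p between 0.0501 and 0.124. It was also lost without old trained replicate 2 (adjusted p = 0.0511) or replicate 3 (adjusted p = 0.0514), libraries of neither group compared. The log2 fold change moved little, between 0.77 and 0.95 over the 16 fits. Without old sedentary replicate 3 the standard error was 0.13 and the edgeR adjusted p was 0.000843. With only the 8 young libraries the standard error was 0.10 and the edgeR adjusted p was 0.00148.

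In old trained rats Bdnf had 20.2, 31.0, 24.7 and 31.4 CPM, against 7.79, 8.24, 20.9 and 6.12 CPM in old sedentary rats. The groups overlapped through a single library, old sedentary replicate 3, whose 20.9 CPM was above the lowest trained value. The other 5 genes in that library lay inside the range of the remaining old sedentary libraries, and for Bdnf it lay inside the young sedentary range of 17.5 to 24.2 CPM. Group means were 26.8 ± 5.37 CPM in trained and 10.8 ± 6.81 CPM in sedentary rats (SD, n = 4 each), and 7.38 ± 1.12 CPM in sedentary rats without replicate 3 (SD, n = 3). Counts per library ran from 169 to 407 in trained and from 70 to 228 in sedentary rats.

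Bdnf rose 2.51-fold with training in old rats (95% interval 1.65 to 3.82), a log2 fold change of 1.33 with a standard error of 0.28 (edgeR adjusted p = 0.00452). In this comparison 24.1% of all genes tested passed the threshold. The call held on leaving out each of the 16 libraries in turn. The log2 fold changes were 1.14 to 1.87, the highest without old sedentary replicate 3. The call also held with only the libraries of old rats fitted, but nearer the threshold. The log2 fold change was then 1.32, with a standard error of 0.37 (edgeR adjusted p = 0.0444). With old sedentary replicates 1, 2 and 4 left out together, an alternative added on seeing the data, the log2 fold change was 0.37 (standard error 0.22, edgeR adjusted p = 0.713), and 0 of all genes tested passed. That setting leaves 1 old sedentary library, which is assumed to vary like the other groups. Averaged over age, the fold with training was 2.11 (95% interval 1.58 to 2.82), with edgeR adjusted p = 0.000775 against a background of 33.9% of genes, and it was called in each of the 16 fits that left out 1 library. Without old sedentary replicate 3 the averaged log2 fold change was 1.35, against 1.08 with it.

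**Figure D1:**
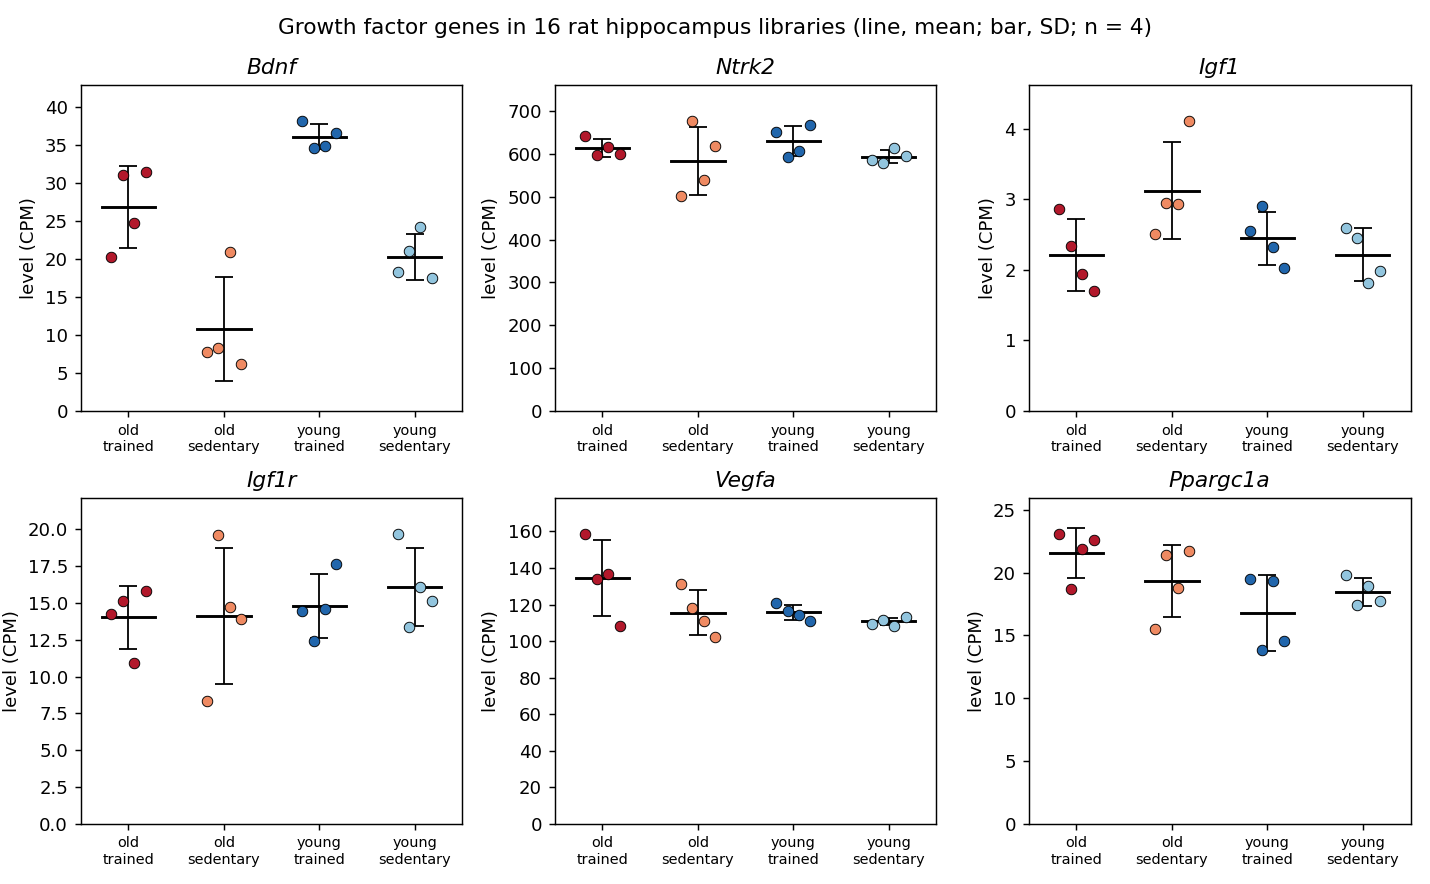
Level of each growth factor gene in CPM (vertical axis, from 0) in 16 libraries, for old trained, old sedentary, young trained and young sedentary rats; points are libraries, lines are means and bars are SD (n = 4). Bdnf is higher in trained than in sedentary rats at both ages apart from 1 old sedentary library at 20.9 CPM, while the groups overlap for each other gene in each comparison tested.

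The training response of Bdnf was not shown to differ between old and young rats. The interaction was 0.50 on the log2 scale (95% interval -0.33 to 1.33, edgeR adjusted p = 0.579), and 0% of all genes passed, although 2033 genes had an unadjusted p below 0.05. The estimate turned on old sedentary replicate 3. Without it the interaction was 1.04 (edgeR adjusted p = 0.0133), in a fit where 582 of all genes tested passed. With old sedentary replicates 1, 2 and 4 left out together it was -0.45 (edgeR adjusted p = 0.808).

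Bdnf was lower in old than in young rats in both training states, with no call in either. In sedentary rats the old to young fold was 0.529 (95% interval 0.347 to 0.808), a log2 fold change of -0.92 with a standard error of 0.29 (edgeR adjusted p = 0.0969), and 1.51% of all genes passed. That value crossed the threshold with the DESeq2 Wald test (adjusted p = 0.0235) and with limma voom (adjusted p = 0.0302). It also did so without old sedentary replicate 3, where the log2 fold change was -1.46 (edgeR adjusted p = 4.692e-05). In that fit 2007 of all genes tested passed, against 227 with all libraries. With only the 8 sedentary libraries the Bdnf standard error was 0.36 (edgeR adjusted p = 0.284), and with no filter the edgeR adjusted p was 0.166. Of the 8 alternatives other than leaving out 1 library, 2 gave a Bdnf call. With old sedentary replicates 1, 2 and 4 left out together the Bdnf log2 fold change was 0.04. In trained rats the old and young Bdnf levels given above did not overlap, the old being lower. The fold was 0.748 (95% interval 0.506 to 1.11, edgeR adjusted p = 0.367), where 4.98% of all genes passed. The standard error of the log2 fold change in that fit was 0.265. Without old sedentary replicate 3, a library of neither trained group, it was 0.132 (edgeR adjusted p = 0.0695). With only the libraries of trained rats fitted it was 0.124 (edgeR adjusted p = 0.0574), again with no call.

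Averaged over training, Bdnf was 0.629-fold in old relative to young rats (95% interval 0.472 to 0.840, log2 fold change -0.67, standard error 0.20, edgeR adjusted p = 0.0413), against a background of 10.5% of genes. This call held in 3 of the 16 fits that left out 1 library. It held without old trained replicate 4 (edgeR adjusted p = 0.0446) or young sedentary replicate 4 (adjusted p = 0.0499). It also held without old sedentary replicate 3 (log2 fold change -0.94, adjusted p = 3.503e-05), where 2452 of all genes tested passed, against 1585 with all libraries. Leaving out any of the other 13 libraries gave edgeR adjusted p between 0.05004 and 0.0819. With no filter on low counts the adjusted p was 0.0822. In order of mean level, Bdnf stood highest in young trained, then old trained, young sedentary and old sedentary rats. The ranges of old trained and young sedentary rats, which are neighbours in that order, overlapped, as did those of young and old sedentary rats through replicate 3.

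**Figure D2:**
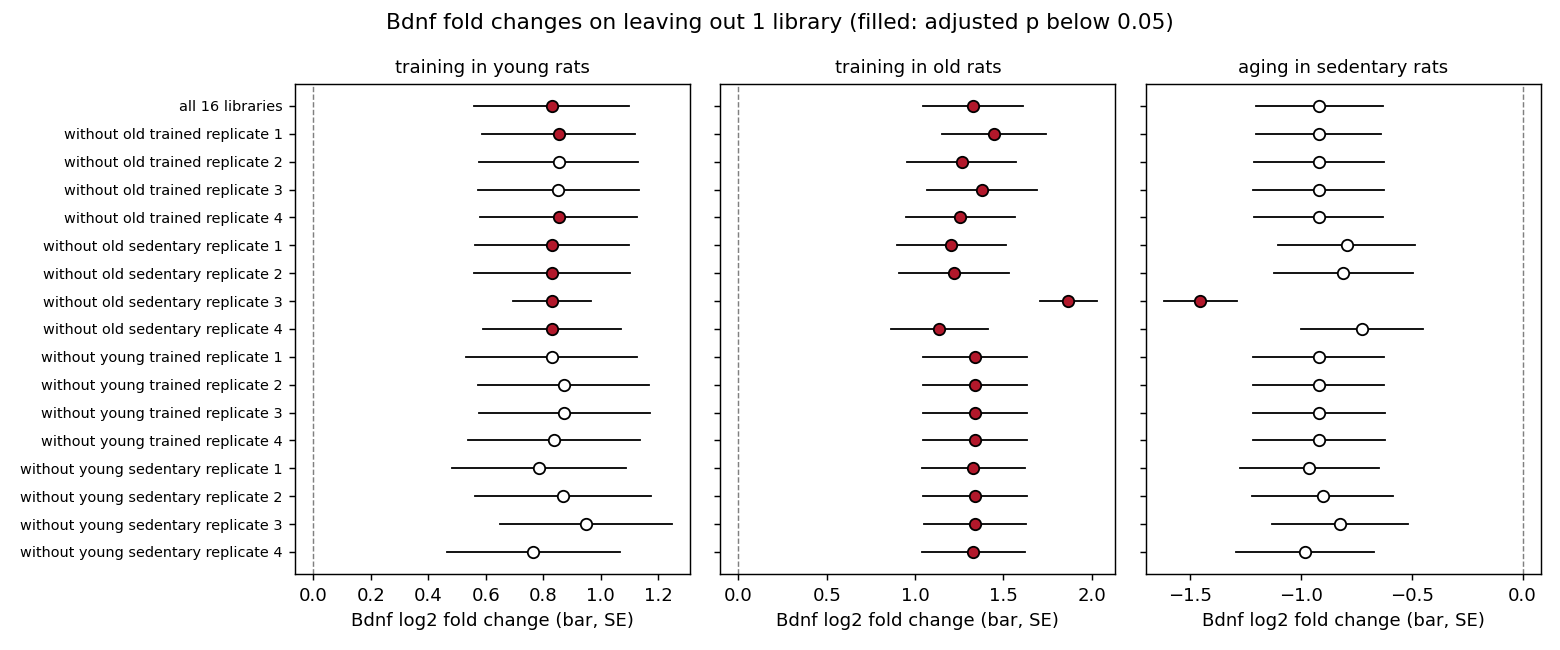
Bdnf log2 fold change (horizontal axis) for training in young rats (left), in old rats (middle) and for aging in sedentary rats (right), with all 16 libraries and with each left out in turn; bars are standard errors and filled points have an edgeR adjusted p below 0.05. Training in old rats is filled in each row, training in young rats with all libraries and in 6 of the 16 fits that leave 1 out, and aging in sedentary rats only without old sedentary replicate 3.

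The spread of Bdnf between rats of a group was carried by old sedentary replicate 3. With that library its biological coefficient of variation was 27.0%, against 13.5% on the trend for its level, and without it 12.8%, against 12.6% on the trend. Between groups, Bdnf levels also lined up with the main axis of variation of the libraries. Scores on the first principal component lay between -28.4 and -18.9 in old trained and between -39.8 and -22.6 in young trained rats. Mean Bdnf was highest in these groups. In young sedentary rats the scores were 0.69, 29.3, 1.34 and 25.7, with Bdnf of 18.3, 21.0, 24.2 and 17.5 CPM. Within that group Bdnf did not follow the score. The old sedentary libraries with scores of 49.7 or more had the lowest Bdnf, and replicate 3, at 12.7, had a Bdnf level like that of young sedentary rats. The part of this axis in the Bdnf differences was not tested.

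**Figure D3:**
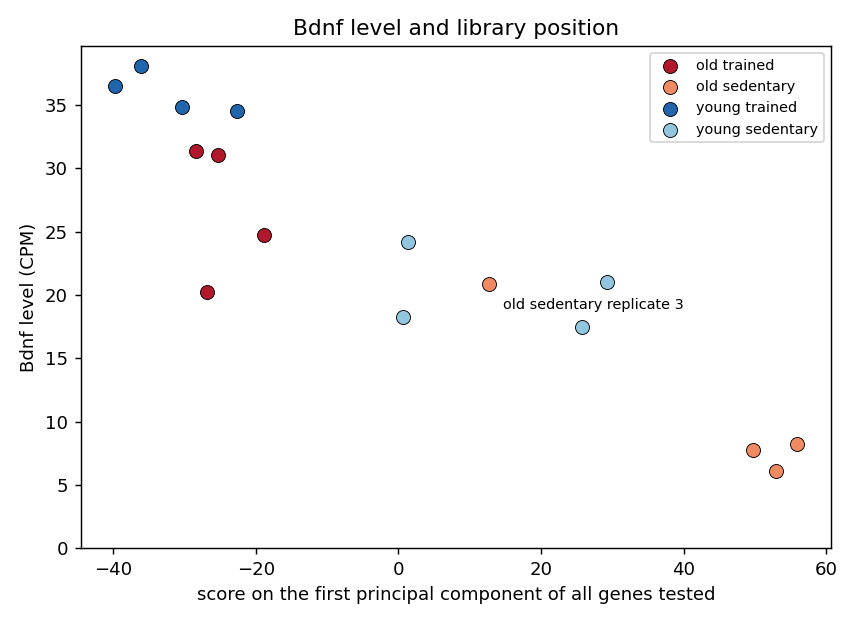
Bdnf level in CPM (vertical axis, from 0) against the score of each library on the first principal component of all genes tested (horizontal axis, no unit), with 1 point per library coloured by group. Trained libraries lie at the left with Bdnf of 20.2 CPM or more, and 3 old sedentary libraries lie at the right with Bdnf of 8.24 CPM or less.

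Over the 16 libraries the gene whose log2 CPM followed Bdnf best was ENSRNOG00000055185 (Pearson r = 0.993), which the table does not name. It had 4.19 ± 1.15 CPM in old trained, 1.17 ± 1.36 in old sedentary, 7.14 ± 0.687 in young trained and 3.03 ± 0.924 CPM in young sedentary rats (SD, n = 4 each). Bdnf had 436 genes with r above 0.9 and 91 with r below -0.9, so many genes followed the same order of libraries. Igf1r had 2 and 5 such genes, and Ntrk2, Igf1, Vegfa and Ppargc1a had 0. The closest gene to Igf1r was ENSRNOG00000028341 (r = 0.936). These correlations share library and depth and are given as a description.

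Igf1 was near the lower end of what the depth could resolve. It had 24, 29, 27 and 22 counts in old trained, 28, 35, 32 and 47 in old sedentary, 29, 35, 26 and 26 in young trained, and 26, 36, 19 and 22 counts in young sedentary rats. The coefficient of variation of its CPM within a group was 15.3% to 23.2%, while counting error alone gives 17.1% to 20.3%, so the spread between rats was of the order of counting error. Mean levels were 2.21 ± 0.513 CPM in old trained, 3.12 ± 0.688 in old sedentary, 2.45 ± 0.374 in young trained and 2.21 ± 0.374 CPM in young sedentary rats (SD, n = 4 each). Old sedentary rats had the highest mean, and each pair of groups compared overlapped.

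No Igf1 difference passed the test. In old rats the trained to sedentary fold was 0.697 (95% interval 0.513 to 0.948, edgeR adjusted p = 0.0828), and in young rats it was 1.10 (95% interval 0.806 to 1.51, edgeR adjusted p = 0.676). The interaction of these responses was -0.66 on the log2 scale with a standard error of 0.30 (edgeR adjusted p = 0.356). With age, the old to young fold was 1.41 in sedentary rats (95% interval 1.03 to 1.91, edgeR adjusted p = 0.200) and 0.889 in trained rats (adjusted p = 0.678). In old sedentary rats, where Igf1 had its highest mean, Bdnf had its lowest.

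Vegfa, at 102.1 to 158.7 CPM, was measured with more precision than the other ligands. Old trained rats had 158.7, 133.9, 136.9 and 108.2 CPM, against 131.3, 118.3, 110.8 and 102.1 CPM in old sedentary rats. The trained values were higher on average but overlapped the sedentary ones through replicate 4, and the fold was 1.16 (95% interval 1.01 to 1.34, log2 fold change 0.22, standard error 0.10, edgeR adjusted p = 0.113). Without old trained replicate 4 the log2 fold change was 0.32 (edgeR adjusted p = 0.0167), and without replicate 1, the highest library, it was 0.14 (edgeR adjusted p = 0.321). Leaving out old trained replicate 4 also gave a call for training averaged over age (edgeR adjusted p = 0.0142). With all libraries there was no such call (adjusted p = 0.122).

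Young rats showed little spread in Vegfa. Young trained rats had 120.9, 116.5, 114.1 and 111.1 CPM, against 109.6, 111.8, 108.5 and 113.2 CPM in young sedentary rats, with a fold of 1.04 (95% interval 0.908 to 1.20, edgeR adjusted p = 0.678). The upper end of the interval was a rise of 1.20-fold. The old to young fold was 1.16 in trained rats (95% interval 1.01 to 1.33, log2 fold change 0.22, edgeR adjusted p = 0.190) and 1.04 in sedentary rats (95% interval 0.908 to 1.20, edgeR adjusted p = 0.783). Without old trained replicate 1 the log2 fold change in trained rats was 0.11 (edgeR adjusted p = 0.519). Old trained rats had the highest mean, 134.4 ± 20.7 CPM, with 115.6 ± 12.4 in old sedentary, 115.7 ± 4.17 in young trained and 110.8 ± 2.14 CPM in young sedentary rats (SD, n = 4 each), and their lowest library lay below the 4 young trained libraries.

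The receptor genes did not pass the test in any comparison. Ntrk2 had 642.1, 597.2, 615.3 and 600.4 CPM in old trained rats, against 501.8, 676.6, 538.8 and 617.9 CPM in old sedentary rats. It had 651.0, 592.5, 607.5 and 667.6 CPM in young trained rats, against 586.2, 578.0, 613.7 and 595.0 CPM in young sedentary rats. Both pairs of groups overlapped, and the old sedentary libraries were the most spread, at 583.8 ± 78.6 CPM (SD, n = 4). The trained to sedentary fold was 1.05 in old rats (95% interval 0.932 to 1.19, edgeR adjusted p = 0.585) and 1.06 in young rats (95% interval 0.941 to 1.20, edgeR adjusted p = 0.486). The old to young folds were 0.975 in trained (adjusted p = 0.832) and 0.984 in sedentary rats (adjusted p = 0.924), with 95% intervals from 0.864 to 1.11 over both.

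Igf1r had 14.2, 15.1, 10.9 and 15.8 CPM in old trained rats, against 8.33, 19.6, 14.7 and 13.9 CPM in old sedentary rats. Young trained rats had 14.5, 12.4, 14.6 and 17.7 CPM, against 19.7, 13.4, 16.1 and 15.1 CPM in young sedentary rats. Again the old sedentary libraries were the most spread, and all 4 pairs of groups overlapped. Trained to sedentary folds were 0.989 in old (95% interval 0.735 to 1.33, edgeR adjusted p = 0.968) and 0.923 in young rats (95% interval 0.689 to 1.24, edgeR adjusted p = 0.715). Old to young folds were 0.947 in trained (edgeR adjusted p = 0.857) and 0.884 in sedentary rats (edgeR adjusted p = 0.682). Igf1r and Ntrk2 moved together from library to library, with a Pearson r of 0.692 between their deviations from the group means. This was the highest r among the pairs of members. It was not particular to the receptors, as Ppargc1a had 0.566 with Ntrk2 and 0.472 with Igf1r. The remaining pairs lay between -0.394 and 0.219. The old sedentary libraries lowest and highest in Igf1r were also lowest and highest in Ntrk2.

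**Figure D4:**
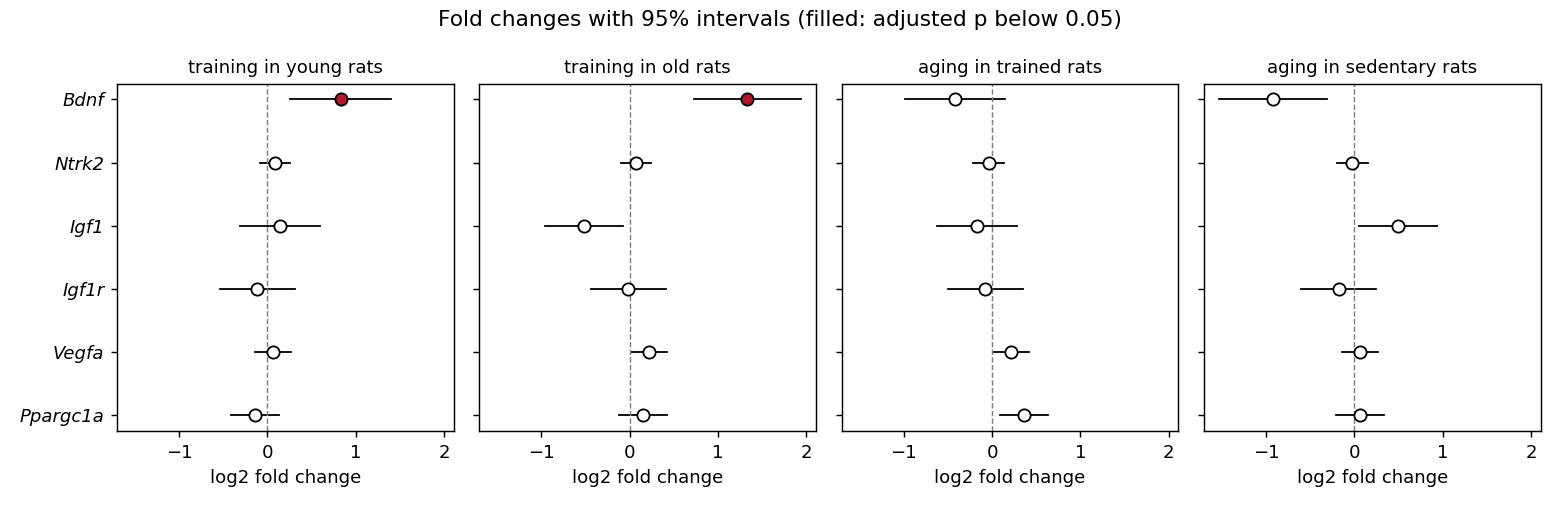
Log2 fold change (horizontal axis) of the 6 genes in 4 comparisons, training in young and in old rats and aging in trained and in sedentary rats, with 95% intervals; filled points have an edgeR adjusted p below 0.05. Bdnf is filled for training at both ages, and the other points are open.

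A ligand can be set against its own receptor within a library, which removes the scaling of that library. Bdnf counts per 100 Ntrk2 counts were 3.15, 5.20, 4.02 and 5.22 in old trained rats, against 1.55, 1.22, 3.87 and 0.990 in old sedentary rats. They were 5.85, 5.84, 5.74 and 5.48 in young trained rats, against 3.12, 3.64, 3.94 and 2.93 in young sedentary rats. The young groups did not overlap, and the old groups overlapped through old sedentary replicate 3. The log2 difference with training was 1.39 in old (exact permutation p = 0.0571) and 0.76 in young rats (p = 0.0286 by the same exact test, the lowest value possible for groups of 4), each with an adjusted p of 0.114 over 8 tests. With age the exact test gave p = 0.0286 in trained rats (log2 difference -0.41, adjusted p = 0.114) and p = 0.114 in sedentary rats (log2 difference -1.05, adjusted p = 0.183), and no ratio passed after adjustment. In groups this small, 5 of the 8 tests would have to reach the lowest possible p before any adjusted p fell below 0.05, so these tests could hardly give a call. Without old sedentary replicate 3 the log2 difference was 1.80 for training in old rats and -1.46 for aging in sedentary rats, each with p = 0.0286 and adjusted p = 0.0571 by exact permutation. The tests were 2-sided and were added after the data were seen.

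Igf1 counts per 100 Igf1r counts averaged 16.04 ± 4.02 in old trained, 23.6 ± 7.42 in old sedentary, 17.1 ± 4.98 in young trained and 14.0 ± 3.04 in young sedentary rats (SD, n = 4 each). Old sedentary rats had the highest mean ratio. The log2 difference between old and young sedentary rats was 0.72, with p = 0.0571 by exact permutation and 0.114 after adjustment. Between old trained and old sedentary rats it was -0.54, with p = 0.200 by exact permutation and 0.267 after adjustment. The other comparisons gave 0.27 for training in young rats and -0.08 for aging in trained rats, with exact p of 0.343 and 0.771.

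**Figure D5:**
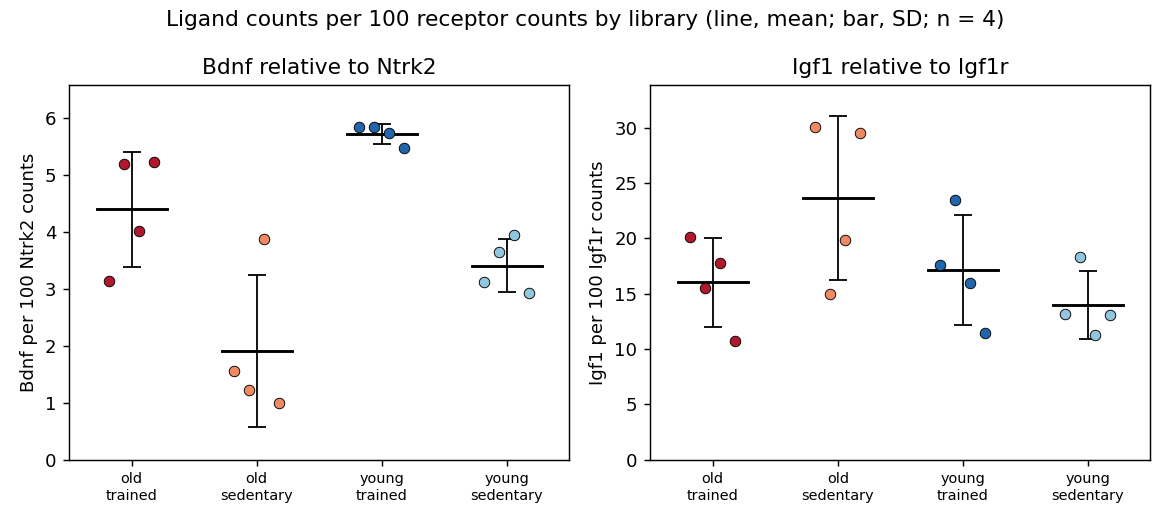
Bdnf counts per 100 Ntrk2 counts and Igf1 counts per 100 Igf1r counts (vertical axes, from 0) in each library of the 4 groups; lines are means and bars are SD (n = 4). The 4 young trained libraries lie between 5.48 and 5.85 Bdnf per 100 Ntrk2, above the young sedentary ones at 2.93 to 3.94.

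Ppargc1a, whose window carries the full cAMP response element, did not pass the test in any comparison. It had 23.1, 18.7, 21.9 and 22.6 CPM in old trained rats, against 15.5, 21.4, 18.8 and 21.7 CPM in old sedentary rats. Young trained rats had 19.5, 13.8, 19.3 and 14.5 CPM, against 19.8, 17.4, 18.9 and 17.7 CPM in young sedentary rats. Both pairs overlapped, with trained to sedentary folds of 1.11 in old (95% interval 0.922 to 1.34, edgeR adjusted p = 0.436) and 0.908 in young rats (95% interval 0.751 to 1.10, edgeR adjusted p = 0.475). The interval in young rats ended at 1.10-fold, and that of Bdnf started at 1.19-fold. The difference between these genes, and any action of Ppargc1a on Bdnf, was not tested. With age the fold was 1.28 in trained rats (95% interval 1.06 to 1.55, edgeR adjusted p = 0.111) and 1.05 in sedentary rats (95% interval 0.869 to 1.27, edgeR adjusted p = 0.828). Old and young trained rats overlapped in Ppargc1a, at 21.5 ± 1.98 CPM against 16.8 ± 3.03 CPM (SD, n = 4 each).

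Counted over the 6 members, 1 (16.7%) passed for training in young rats, in old rats and averaged over age, each time Bdnf. Over all genes tested the shares were 17.1%, 24.1% and 33.9%, so the members were called no more often than genes in general. For aging averaged over training 1 of 6 passed, again Bdnf, against 10.5% of all genes, which a single call does not set apart. None passed for aging in trained rats, aging in sedentary rats or the interaction by edgeR, where 2, 2 and 1 of the 6 members had an unadjusted p below 0.05, against 22.7%, 19.9% and 13.5% of all genes tested. DESeq2 and limma voom also made 0 member calls for aging in trained rats and the interaction, and each made 1 for aging in sedentary rats. The members' median log2 fold change was 0.07 for training in young and 0.11 for training in old rats, against -0.02 and -0.01 over all genes tested. For aging the members' medians were -0.06 in trained and 0.02 in sedentary rats, against 0.01 over all genes tested in each. Comparisons with a group in common share its libraries, so the Bdnf calls for training in old rats and for aging do not stand apart from each other.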

How the data were processed

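Gene counts, whole numbers with no normalization, were deposited by the authors for 16 libraries. The tools named in the submitters' processing notes are TopHat2 2.1.1 and HTSeq, beside FastQC, Trimmomatic, SAMtools and DESeq2, and the genome build is Rnor_6.0. The sources used here do not say whether counting used strand; reads of overlapping or antisense genes may be included. Per the labels' protocols the libraries were made from poly(A) RNA and numbered 5 per condition, of which 4 per group were analysed here. The lane of each library is not known here, which leaves lane and group impossible to separate.

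The counts were fitted in R 4.3.3 with edgeR 4.0.16: filterByExpr by group, TMM scaling, and a quasi-likelihood fit (glmQLFit, robust) of 1 mean per group over all 16 libraries with 12 residual degrees of freedom. Contrasts were tested 2-sided, Benjamini-Hochberg adjustment ran over 15035 genes, and a gene was called at an adjusted p below 0.05. The standard error is the size of the log2 fold change divided by the square root of F. CPM uses TMM-scaled library sizes. Ligand to receptor ratios were tested by exact permutation. p-values measure the spread between rats, which the labels give as biological replicates. No pair of libraries of a group agreed within counting noise.

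The members and lists were chosen with earlier results of these data known. The members were the genes named, with, for each, the gene of closest log2 CPM pattern over the libraries (prior count 2). Pathway and cell marker lists were not counted, since the table holds Ensembl IDs only and the reference table matched 0 of them to a symbol. Alternatives were size factors from DESeq2 1.42.0, its Wald test, voom with quality weights from limma 3.58.1, no filter and a stricter filter (1 CPM in 8 libraries), a replicate block, fitting only the 8 libraries compared, an sva 3.50.0 surrogate variable, and leaving out each library. Leaving out old sedentary replicates 1, 2 and 4 together was an alternative added on seeing the data.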

Additional observations from a re-analysis of the deposited data

Results flagged for a closer look

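The Bdnf level of old sedentary replicate 3, 20.9 CPM, stood far from those of the other old sedentary libraries, 6.12 to 8.24 CPM. Its gap to the nearest of them was 0.856 of the range of the group, above the Dixon critical value of 0.829 for 4 samples. It was the 1 such library among 32 sets of 4 values tested, and chance alone marks about 5% of such sets. The same library had the lowest first-component score of its group, 12.7.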

How the results depend on the processing

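Of the recomputed fold changes of single genes, 928 kept their direction and side of the threshold, 27 lost a call, 6 gained one and 29 changed sign, of which 0 were called in either fit. The number of members called stayed at 0 for aging in trained rats under the alternatives run. For training in young rats it was 0 with no filter and 0 to 1 on leaving out 1 library. For training in old rats it was 0 with old sedentary replicates 1, 2 and 4 left out together, and 1 to 2 on leaving out 1. For aging in sedentary rats it was 1 with the DESeq2 Wald test and 1 with limma voom, and 0 to 1 on leaving out 1. The interaction ranged from 0 to 1 and training averaged over age from 1 to 2 on leaving out 1 library. Aging averaged over training had 0 with no filter, 0 without those 3 old sedentary libraries, and 0 to 1 on leaving out 1.

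Signs changed, with no call, as follows. With limma voom, Igf1r was 0.034 for training in old rats and 0.0098 for aging in trained rats, and Ppargc1a was -0.0079 for training averaged over age. Without the 3 old sedentary libraries, Bdnf was 0.0396 and Vegfa -0.0035 for aging in sedentary rats, and the interaction was -0.45 for Bdnf and 0.12 for Ntrk2. With no filter the Ntrk2 interaction was 0.0028. On leaving out 1 library, Igf1r ranged from -0.20 to 0.18 for training in old rats, -0.17 to 0.014 for aging in trained rats, -0.38 to 0.0068 for aging in sedentary rats, -0.086 to 0.30 for the interaction and -0.16 to 0.035 for training averaged over age. Ntrk2 ranged from -0.10 to 0.043 for aging in sedentary rats, -0.080 to 0.065 for the interaction and -0.069 to 0.0028 for aging averaged over training. Vegfa ranged from -0.0051 to 0.12 for aging in sedentary rats, and Ppargc1a from -0.038 to 0.063 for training averaged over age. The Igf1 to Igf1r ratio ranged from -0.26 to 0.096 (log2 difference) for aging in trained rats. The cause was not tested.

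Over all genes tested, calls for training in young rats were 2572 and 1289 to 4393 under the alternatives, for training in old rats 3618 and 0 to 4510, for aging in trained rats 748 and 237 to 1348, and for aging in sedentary rats 227 and 3 to 2007. The interaction had 0 and 0 to 582, training averaged over age 5100 and 1866 to 5988, and aging averaged over training 1585 and 114 to 2452. With a replicate block the Bdnf log2 fold change was 0.85 for training in young rats (edgeR adjusted p = 0.0273), 1.39 for training in old rats (adjusted p = 0.00198), -0.97 for aging in sedentary rats (adjusted p = 0.0553) and -0.70 for aging averaged over training (adjusted p = 0.0226), and no count of members called changed. Of 24 correlations between same-numbered libraries of different groups, 12 were over 0.1 (range -0.245 to 0.477). They were not set against differently numbered libraries, so they cannot decide whether the numbers pair the rats. The surrogate variable from sva was 1 for old trained replicate 1 and 0 for the other libraries, so it gave no usable value. Depth limits Igf1, with 19 to 47 counts per library.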
